A study of Mus musculus with 7 samples.

Results

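The general splicing factors are the RNA-binding proteins that most pre-mRNAs meet on their way through the spliceosome, and 48 of their genes were followed here in E16 mouse retina. They were the rows of the deposited count table, 48 of 48440, whose symbol is an SR protein, an hnRNP or a core factor of the 3' splice site and branch point, with PTB and its relatives of the hnRNP L family left aside. The 48 genes fall into 10 subfamilies by name and protein type, and all 48 passed the filter on low counts, as did 20019 genes in all.

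SR proteins carry RNA recognition domains and a tail rich in arginine and serine, bind exonic enhancers, and draw the U1 and U2 particles to nearby splice sites. The hnRNPs coat nascent transcripts and often act against exon inclusion, and PTBP1 itself is one of them. Many genes of both kinds limit their own expression. In some of them, when the protein is abundant, an extra exon with a stop codon is spliced into the mRNA, which nonsense-mediated decay then removes.

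Bulk mRNA-seq was performed on pools of whole retinas from 3 genotypes. WT was the *Chx10Cre* control, with 1 library. Het was *Chx10-Cre;Ptbp1lox/WT*, with 1 floxed *Ptbp1* allele and 3 libraries, and KO was *Chx10-Cre;Ptbp1lox/lox*, with both alleles floxed and 3 libraries. All of them carried Cre under the *Chx10* promoter, which is active in retinal progenitors, so cells of other origin, such as vessels and microglia, kept an intact gene. Levels are in CPM, counts relative to a library's total after TMM scaling, and errors are SDs of 3 libraries. WT, with 1 library, carries no error.

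*Ptbp1* itself was at 381 CPM in WT, at 210.3, 219 and 234 CPM in Het1 to Het3, and at 27.9, 6.04 and 46.9 CPM in KO1 to KO3, in the order the labels give. Its log2 fold change from Het to KO was -3.04 (SE 0.635, adjusted p = 0.0316, edgeR's quasi-likelihood test). Libraries held 120593979 to 171117305 counts, of which the 48 genes took 2.12% to 2.23%. Skeletal muscle markers, at 5.02 to 6.28 CPM summed in the other 6 libraries, summed to 288 CPM in Het1, where 8 of 8 were highest, and pigmented cell markers summed to 520 CPM there against 19.1 to 58.7 CPM elsewhere. Erythroid markers summed to 292 CPM in WT, 162 to 465 CPM in Het, and 36.3, 23.9 and 290 CPM in KO1 to KO3. Lens markers summed to 11.2 CPM in WT, 20.9 to 72.9 CPM in Het, and 1.32, 3.625 and 39.0 CPM in KO1 to KO3. Summed ganglion cell markers were at 2079.5 to 2169.6 CPM in Het and 1622 to 1860.1 CPM in KO, photoreceptor precursor markers at 719 to 785 and 873 to 908 CPM, amacrine and horizontal cell markers at 454 to 489 and 558 to 609 CPM, vessel markers at 383 to 401 and 482 to 578 CPM, and microglia markers at 38.2 to 54.0 and 56.7 to 74.9 CPM, while progenitor markers overlapped, at 2359 to 2481 and 2383 to 2403 CPM. The part of these differences in the results that follow was not tested, and in bulk RNA a smaller number of cells of a type and less RNA per cell cannot be told apart.

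Cassette exons that are annotated only in decay transcripts and lie inside an intron of a coding transcript were found in 10 of the 48 genes (20.8%), against 7.23% of 15874 tested protein-coding genes. That reference was not matched for abundance. The 10 were *Srsf3*, *Srsf7*, *Srsf9*, *Srsf11*, *Tra2a*, *Tra2b*, *Hnrnpd*, *Tia1*, *Tial1* and *Sf3b1*. Decay transcripts of any form were annotated for 30 of the 48 (62.5%, against 25.7% of those protein-coding genes), so the exon definition leaves out retained introns and exons joined past the normal stop. The exon stretches of 5 genes taken up again later are printed here from the GENCODE M21 transcripts of GRCm38, together with that of *Tra2b*, 1 exon a gene, in the direction of the gene from the first exon base to the in-frame stop codon, which is in capitals.
Tra2a, chr6:49252965-49253108, minus strand: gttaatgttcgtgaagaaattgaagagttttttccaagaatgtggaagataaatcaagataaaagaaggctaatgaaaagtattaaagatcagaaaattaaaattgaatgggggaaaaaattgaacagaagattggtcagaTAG
Tra2b, chr16:22259181-22259261, minus strand: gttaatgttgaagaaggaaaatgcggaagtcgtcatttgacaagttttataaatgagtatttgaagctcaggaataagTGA
Tia1, chr6:86423606-86423642, plus strand: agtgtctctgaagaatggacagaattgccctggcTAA
Tial1, chr7:128447071-128447107, minus strand: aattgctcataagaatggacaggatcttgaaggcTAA
Srsf11, chr3:158023310-158023359, minus strand: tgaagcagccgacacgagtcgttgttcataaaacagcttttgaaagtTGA
Sf3b1, chr1:55014905-55014924, minus strand: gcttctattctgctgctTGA
The printed exons of *Tra2a* and *Tra2b* open with the same 9 bases. *Tia1* and *Tial1* each hold 3 such exons, and the pair printed was picked as the most alike of the 9 possible pairs. These exons both reach their stop at base 37, with identical letters at 25 of the 37 positions and a shared run of 12 bases (aagaatggacag). Counts per gene add up all isoforms, so how often any of these exons was included was not measured.

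Between Het and KO, 3 of the 48 genes changed, all upwards: *Tra2a* (a splicing activator of the Tra2 group), *Tia1* (a U-rich RNA binder that supports U1 at weak 5' splice sites) and *Srsf12* (an SR-like protein that opposes other SR proteins). A gene was counted as changed at a Benjamini-Hochberg adjusted p below 0.05 over all genes tested and an absolute log2 fold change above 0.263, a fold of 1.2. Such changes made up 4.01% of all genes tested in the upward and 3.21% in the downward direction, or 7.22% in all, and 6.25% of the 48 genes. Of 1159 genes as abundant as those between the quartiles of the 48, 4.75% passed both limits. *Tra2a*, *Tia1* and *Srsf12* themselves lay below that range of abundance. None of the 48 genes passed both limits downwards by edgeR, although 9 were lower at an unadjusted p below 0.05, and DESeq2 called 1 lower, *Raver2*. In either direction, 16 of the 48 (33.3%) had an unadjusted p below 0.05 by edgeR, beside 5952 of all 20019 genes. By adjusted p alone, 7 of the 48 passed (14.6%), 6 higher and 1 lower, against 11.1% of all genes, 5.78% higher and 5.31% lower. In the abundance range above, where *Sf3b1* was the only one of the 7, 12.3% of the 1159 genes passed. DESeq2 gave 13 of the 48 by adjusted p alone, 7 higher and 6 lower, where it gave 20.6% of 17407 genes. By both limits it gave 4 of the 48, beside 11.9%. A test of a single gene by exact permutation cannot give a p below 0.1 with 3 libraries against 3. Nothing in the labels says that the pools came from separate litters, so these p-values measure the spread between pools.

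**Figure D1:**
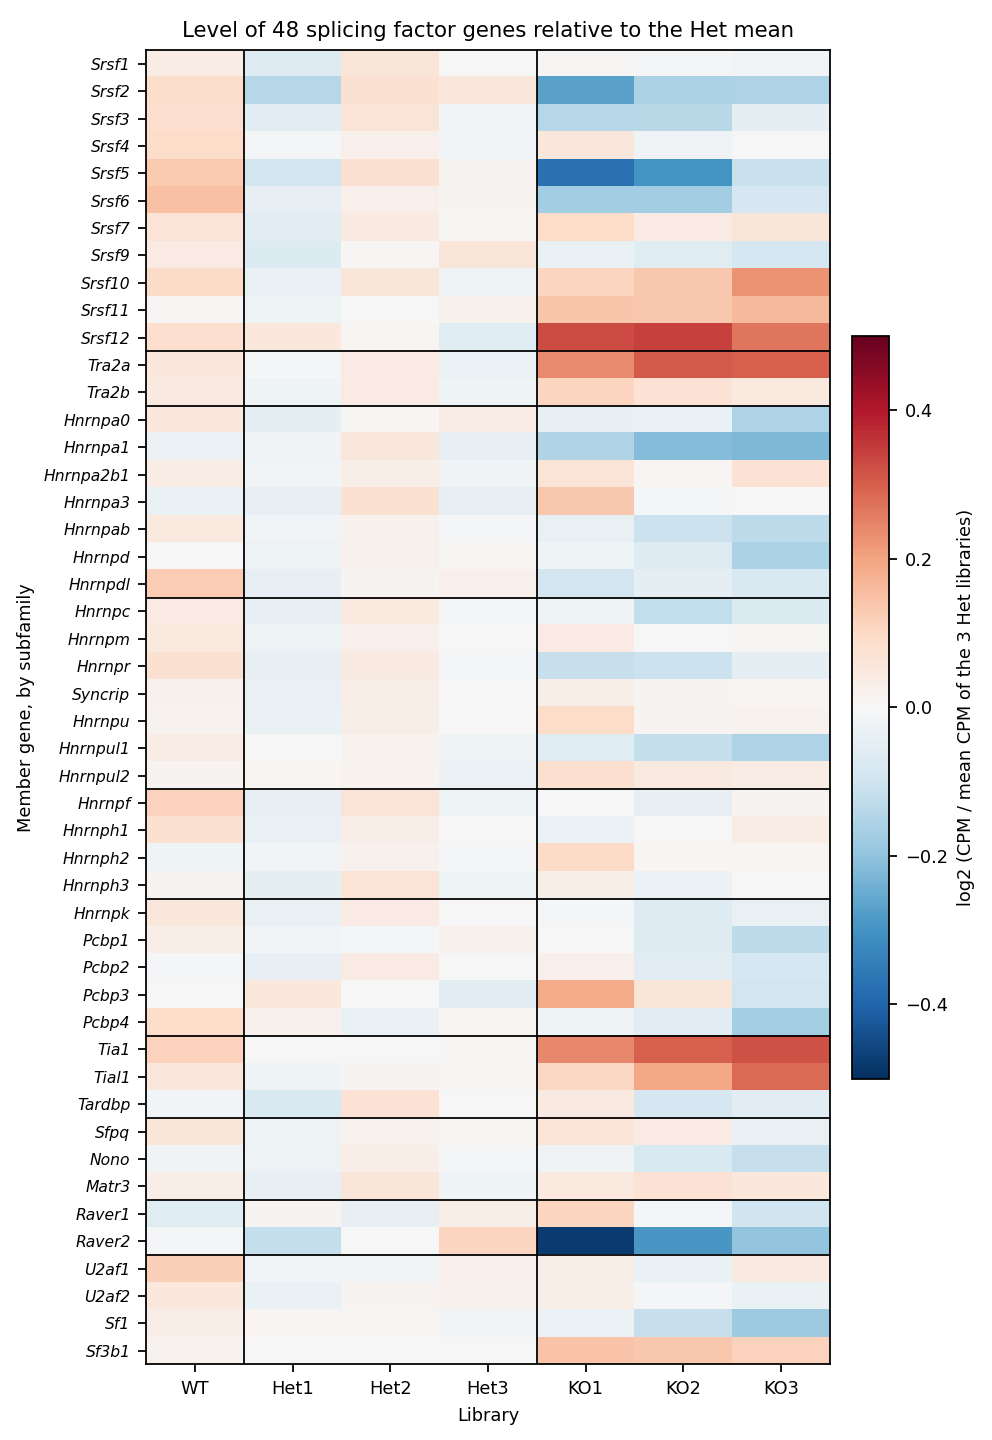
Heat map of the 48 genes (rows, by subfamily) in the 7 libraries (columns), coloured by log2 of CPM over the mean CPM of the 3 Het libraries. *Tra2a*, *Tia1* and *Srsf12* are red in all 3 KO libraries, *Raver2* and *Srsf5* are blue there, and 29 of the 48 WT values lie above all 3 Het libraries.

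Most of the 48 genes sat close to their Het level. The median log2 fold change over them was -0.0019, beside -0.0047 over all genes, with 50% of them above 0, and 33 of 48 moved by less than 0.1 on the log2 scale. In 40 of the 48 the 95% interval of the log2 fold change lay wholly within ±0.263, so a change of 1.2-fold or more lay outside the interval. That held for 35.7% of all genes and for 77.5% of the genes between the abundance quartiles of the 48. The 8 exceptions were *Srsf2*, *Srsf5*, *Srsf12*, *Tra2a*, *Hnrnpa1*, *Tia1*, *Tial1* and *Raver2*. Het and KO libraries did not overlap in 9 genes with higher and 10 with lower KO values, or 18.8% and 20.8% of the 48, where all genes gave 18.6% and 17.7%. The median coefficient of variation over the 48 was 2.51% in Het and 2.98% in KO.

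**Figure D2:**
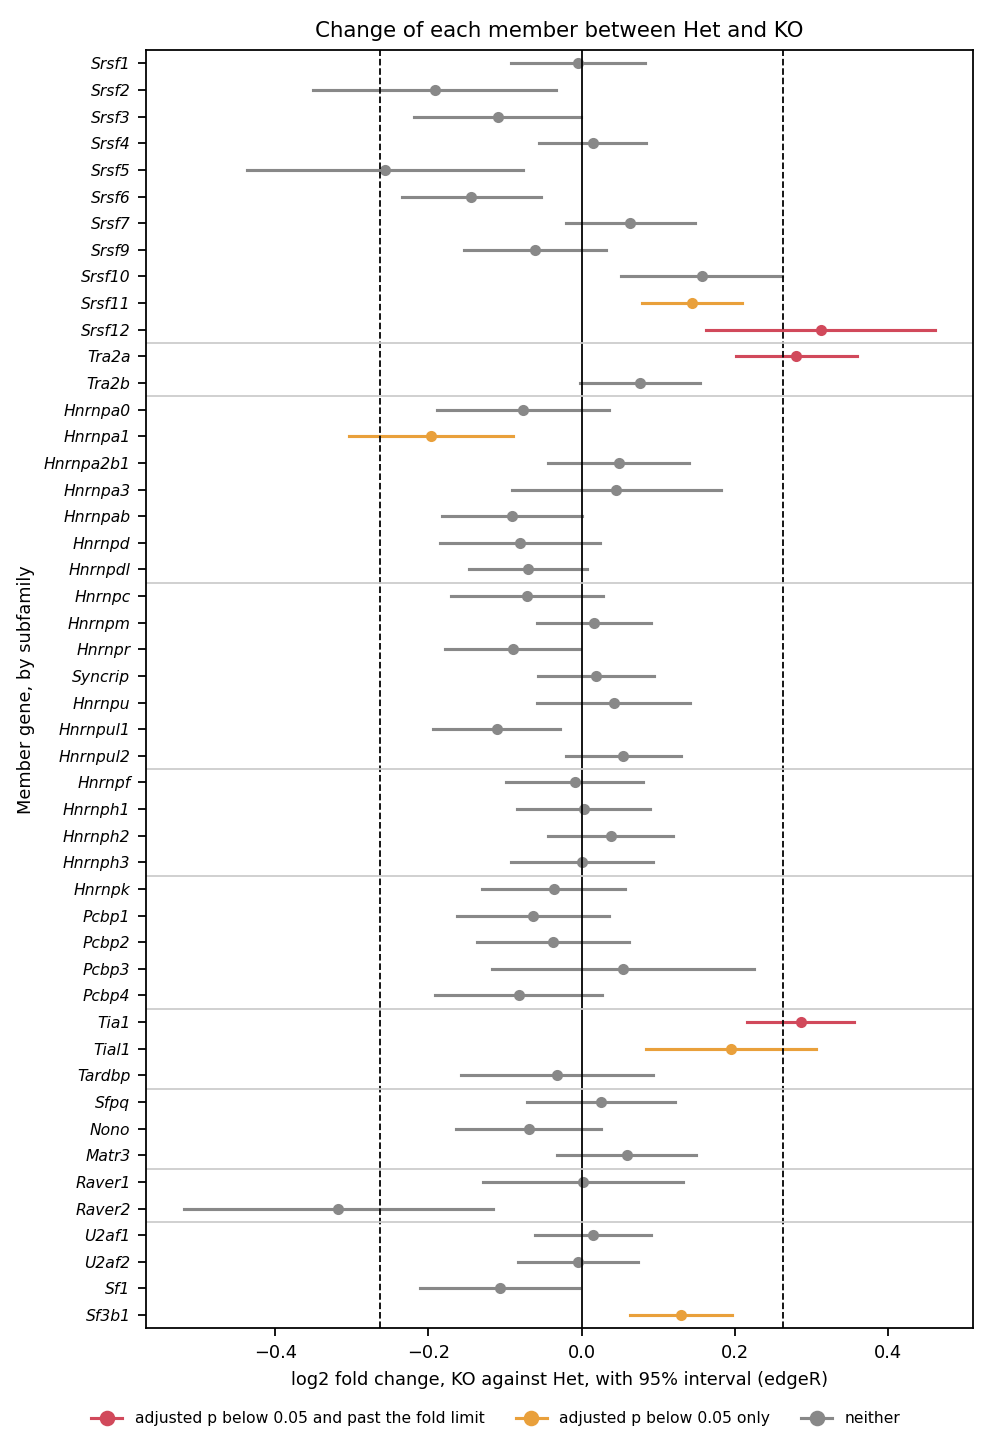
Log2 fold change from Het to KO of each of the 48 genes with its 95% interval by edgeR, and dashed lines at ±0.263. The 3 red genes passed both limits, the 4 orange ones (*Srsf11*, *Hnrnpa1*, *Tial1*, *Sf3b1*) passed the adjusted p alone, and 40 intervals stay within the dashed lines.

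Among the 11 SR proteins, 1 passed both limits (*Srsf12*) and a second, *Srsf11*, passed the adjusted p alone, both higher in KO. At an unadjusted p below 0.05 by edgeR, 3 of the 11 were higher and 4 lower, beside 5952 of all 20019 genes in either direction. *Srsf12* was at 8.61 CPM in WT, at 8.42, 8.17 and 7.78 CPM in Het and at 10.2, 10.3 and 9.77 CPM in KO. All KO libraries were above WT and Het, with a log2 fold change of 0.31 (SE 0.0626, adjusted p = 0.0278, edgeR). When 1 of the 6 Het and KO libraries was left out, its adjusted p was 0.0357 without KO3 and between 0.0501 and 0.104 without any of the other 5.

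*Srsf11*, one of the genes whose decay exon is printed above, stood at 150.0 CPM in WT, 147, 149.7 and 152 CPM in Het and 164, 164 and 167 CPM in KO. The groups did not overlap and WT lay within Het. The log2 fold change was 0.14 (SE 0.0275, adjusted p = 0.0245, edgeR), under the fold limit, with an interval of 0.079 to 0.21. It passed the adjusted p in 2 of the 6 refits with 1 library left out.

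*Srsf5* had the lowest fold change of the SR proteins. It was at 154 CPM in WT, 132, 148 and 142 CPM in Het, and 109, 114 and 130.4 CPM in KO, so its KO libraries were all below Het, KO3 by a narrow margin. The log2 fold change of -0.26 (SE 0.0756) had an adjusted p of 0.0762 by edgeR and 0.0026 by DESeq2. Without KO3 it became -0.33 with an adjusted p of 0.0227. Its neighbours by size of difference were *Srsf2* at -0.19 and *Srsf6* at -0.14, also below Het in every KO library. Their adjusted p was 0.112 and 0.0582 by edgeR, and 0.0156 and 0.0046 by DESeq2. *Srsf10*, whose protein acts as a repressor when dephosphorylated, was at 0.16 and above Het in every KO library. Its adjusted p was 0.0674 by edgeR and 0.0106 by DESeq2. *Srsf2* shares 288 and 460 of its 2958 exon bases with *Mfsd11* and *Mettl23* on the opposite strand, and the strand setting of the counting is not given in the sources used here. In KO, *Mfsd11* was at 101.6% and *Mettl23* at 81.1% of Het, both overlapping between the groups. Their part in the *Srsf2* counts was not tested. The highest KO value of *Srsf2*, 239.7 CPM in KO3, was just under its lowest Het value, 241.3 CPM in Het1. The other 5, *Srsf1*, *Srsf3*, *Srsf4*, *Srsf7* and *Srsf9*, overlapped between the groups with log2 fold changes of -0.11 to 0.064. Summed over the 11 genes, SR protein mRNA in KO was at 96.6% of Het, and the groups overlapped.

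The Tra2 proteins bind GAA-rich exonic enhancers, and *Tra2a* was the clearer of the pair. *Tra2a* measured 106 CPM in WT, 101, 105 and 99.7 CPM in Het, and 119.9, 126 and 125 CPM in KO. All 3 KO libraries were above WT and Het, and KO reached 121% of the Het mean (102 ± 2.51 against 124 ± 3.20 CPM, SD, n = 3). The log2 fold change was 0.28 (SE 0.0332, adjusted p = 0.00747, edgeR), and *Tra2a* passed both limits in each of the 6 refits without 1 library. *Tra2b* stood at 258 CPM in WT, 246, 257 and 246 CPM in Het and 269, 262 and 258 CPM in KO, without overlap but with a log2 fold change of only 0.076 (adjusted p = 0.179). The 2 genes together were the one subfamily of the 10 whose summed level separated Het from KO, at 351 ± 8.74 CPM against 387 ± 2.95 CPM, or 110.1% of Het.

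**Figure D3:**
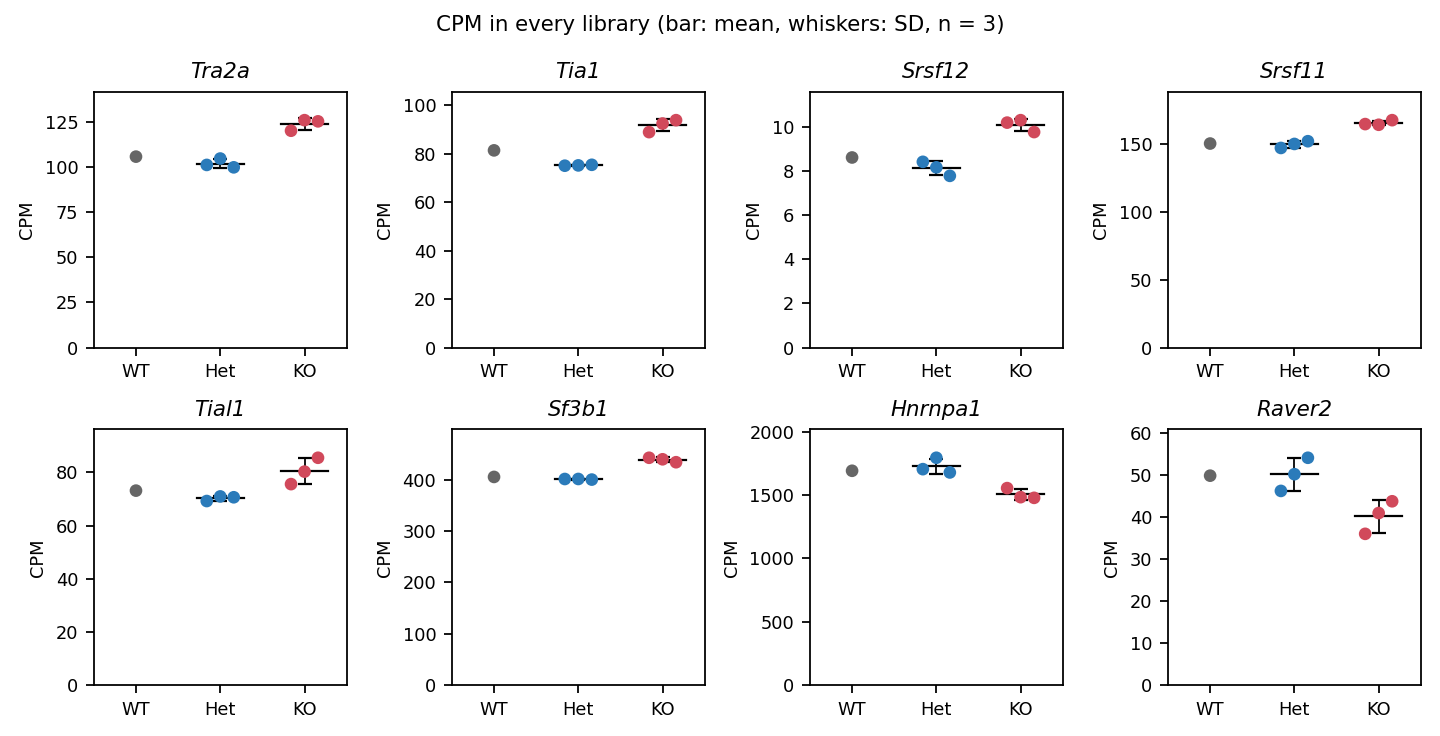
CPM in each library (points, WT grey, Het blue, KO red) of the 7 genes past an adjusted p of 0.05 and of *Raver2*, with the mean and SD of 3 libraries for Het and KO and axes from 0. The KO points lie above all Het points in the first 6 panels and below them in *Hnrnpa1* and *Raver2*.

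The hnRNP A/B and D subfamily includes the core hnRNPs that oppose SR proteins at many exons, and none of its 7 genes passed both limits by either tool, with 1 lower at an unadjusted p below 0.05. That gene was *Hnrnpa1*, at 1692 CPM in WT, 1704, 1794 and 1678 CPM in Het and 1555, 1483 and 1478 CPM in KO. Its KO libraries were all below Het and WT, with a log2 fold change of -0.20 (SE 0.0448, adjusted p = 0.0397, edgeR), within the fold limit. It passed the adjusted p in 1 of the 6 refits without 1 library. The table lists 13 pseudogenes with at least 90% identity to *Hnrnpa1*, which together held at most 0.418% of its counts in any library.

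*Hnrnpa2b1*, the other main gene of the core particle, was highest of the subfamily by fold change. It was at 1516 CPM in WT, 1465, 1508 and 1459 CPM in Het and 1544, 1488 and 1553 CPM in KO. The groups overlapped (log2 fold change 0.049, adjusted p = 0.430). *Hnrnpa0* was at 1011 CPM in WT, 945, 976 and 999.6 CPM in Het and 947, 949 and 874 CPM in KO, also overlapping (-0.076, adjusted p = 0.320). *Hnrnpa3* gave 0.045, and *Hnrnpab*, *Hnrnpd* and *Hnrnpdl*, whose proteins also act on mRNA turnover, gave -0.091, -0.080 and -0.070, with *Hnrnpab* and *Hnrnpdl* below Het in every KO library.

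The 7 genes of hnRNP C, M, R/Q and U, which package long transcripts and nuclear matrix RNA, gave log2 fold changes of -0.11 to 0.054 and no gene past the adjusted p, with 2 lower at an unadjusted p below 0.05. *Hnrnpul1* was lowest, at 417 CPM in WT, 408, 411 and 401 CPM in Het and 389.6, 374 and 366 CPM in KO. These did not overlap, and the log2 fold change was -0.11 (SE 0.0348, adjusted p = 0.0887 by edgeR and 0.0308 by DESeq2). Its relative *Hnrnpul2* had the opposite sign, with 467 CPM in WT, 467, 469 and 454 CPM in Het and 489, 478 and 475 CPM in KO, without overlap but with a log2 fold change of 0.054 (adjusted p = 0.294). *Hnrnpr* was also below Het in every KO library, at -0.090 (adjusted p = 0.161), while *Hnrnpc*, *Hnrnpm*, *Syncrip* and *Hnrnpu* overlapped.

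The 4 hnRNP F/H genes, whose proteins bind runs of G, were the least moved subfamily, with log2 fold changes of -0.0090 to 0.038 and no gene at an unadjusted p below 0.05 by edgeR or called by DESeq2. *Hnrnpf* was at 181 CPM in WT, 162, 175 and 164 CPM in Het and 167, 162 and 168 CPM in KO. *Hnrnph2* was at 173 CPM in WT, 174, 178 and 174 CPM in Het and 187, 176 and 177 CPM in KO. Both overlapped between Het and KO, as did *Hnrnph1* and *Hnrnph3*, and no fold change interval in the subfamily reached beyond ±0.263.

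The poly(C)-binding group of *Hnrnpk* and the 4 PCBP genes likewise held no gene at an unadjusted p below 0.05 by edgeR, none called by DESeq2, and none without overlap. *Pcbp1*, an intronless gene, was at 544 CPM in WT, 527, 531 and 540.0 CPM in Het and 534, 509 and 487 CPM in KO. *Pcbp3* was at 251 CPM in WT, 259.7, 251 and 240.5 CPM in Het and 284, 261 and 234 CPM in KO, and *Pcbp4* at 447, then 426, 410.4 and 423, then 414, 403 and 373 CPM. The KO spread of *Pcbp3* (9.62% of the mean) was wider than that of most of the 48 genes, and its log2 fold change of 0.054 became -0.015 without KO1. *Hnrnpk* and *Pcbp2* were both at -0.037.

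TIA1 and its paralog TIAL1 (TIAR) bind U-rich stretches downstream of 5' splice sites, as PTBP1 binds pyrimidine-rich stretches on either side of exons, and both TIA genes were higher in KO. *Tia1* was at 81.5 CPM in WT, 75.1, 75.2 and 75.5 CPM in Het and 89.0, 92.5 and 93.9 CPM in KO. The 3 Het libraries had a coefficient of variation of 0.254%, and every KO library was above WT and Het. The log2 fold change was 0.29 (SE 0.0292, adjusted p = 0.00555, edgeR), past both limits in each of the 6 refits without 1 library.

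*Tial1* was at 73.2 CPM in WT, 69.3, 71.0 and 70.7 CPM in Het and 75.6, 80.3 and 85.5 CPM in KO. KO1 was closest to WT, and no libraries of Het and KO overlapped. The log2 fold change of 0.20 (SE 0.0465, adjusted p = 0.0448, edgeR) was within the fold limit, and its adjusted p was above 0.05 in 4 of the 6 refits without 1 library, up to 0.129. *Tardbp*, which encodes the GU-repeat binder TDP-43 and limits its own mRNA, overlapped, at 426 CPM in WT, 408, 452 and 429.9 CPM in Het and 443, 405 and 413 CPM in KO (-0.032, adjusted p = 0.716).

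Some of the proteins here are physical partners of PTBP1: RAVER1, RAVER2 and MATR3 each hold a short peptide motif that docks on it. *Matr3* was at 584 CPM in WT, 555, 596 and 563 CPM in Het and 591, 601 and 593 CPM in KO, overlapping, with an interval of -0.031 to 0.15 on the log2 scale. *Raver1* was at 196 CPM in WT, 207, 199 and 209 CPM in Het and 221, 203 and 191 CPM in KO. Its KO libraries spread around the Het mean, and the interval ran from -0.13 to 0.13.

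*Raver2* had the lowest fold change of all 48 genes. It was at 49.9 CPM in WT, 46.3, 50.3 and 54.2 CPM in Het, and 36.1, 41.0 and 43.8 CPM in KO. All KO libraries were below all Het libraries, and WT lay within Het. The log2 fold change was -0.32 (SE 0.0846, interval -0.52 to -0.12), with an adjusted p of 0.0591 by edgeR and 0.0012 by DESeq2. Its last exon shares 4 of 6342 exon bases with *Jak1* on the opposite strand. The other paraspeckle and matrix genes, *Sfpq* and *Nono*, whose proteins form a dimer, overlapped between groups. *Nono* was the lower, at 860.1 CPM in WT, 855, 891 and 865 CPM in Het and 860.0, 825 and 804 CPM in KO (-0.069, adjusted p = 0.292).

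At the 3' splice site itself, where U2AF reads the same pyrimidine tract that PTBP1 can occupy, *U2af1* and *U2af2* had log2 fold changes of 0.015 and -0.0048, with intervals from -0.083 to 0.091. *Sf1*, whose protein binds the branch point before the U2 particle, was at 253 CPM in WT, 249, 248 and 245 CPM in Het and 242, 228 and 218 CPM in KO. These KO libraries were all below Het, at -0.11 (SE 0.0433, adjusted p = 0.157, edgeR). *Sf3b1*, the U2 subunit that holds the branch point after SF1 has left, was at 405 CPM in WT, 401, 401 and 400.3 CPM in Het and 443, 439.8 and 434 CPM in KO. Its 3 Het libraries differed by a coefficient of variation of 0.166%, all KO libraries were above them, and the log2 fold change was 0.13 (SE 0.0279, adjusted p = 0.0333, edgeR), within the fold limit. It passed the adjusted p in 1 of the 6 refits without 1 library.

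Ratios between relatives within a library do not depend on library scaling, and 7 pairs, chosen after their values were seen, were compared on raw counts. The ratio of *Tra2a* to *Tra2b* was 0.410 in WT, 0.411, 0.407 and 0.405 in Het, and 0.446, 0.480 and 0.484 in KO. WT lay within the narrow range of Het, and KO reached 115% of the Het mean. *Hnrnpa1* over *Hnrnpa2b1* was 1.11 in WT, 1.16, 1.19 and 1.15 in Het and 1.01, 0.997 and 0.952 in KO, and lay below WT and Het in all 3 KO libraries.
*Hnrnpa1* over *Hnrnpa3* was likewise lower in every KO library, at 84.6% of Het. *Tia1* over *Tial1* did not overlap either, at 106.7% of Het, with the narrowest margin between 1.08 in Het1 and 1.10 in KO3. *Srsf12* over *Srsf10*, *Raver2* over *Raver1* and *U2af1* over *U2af2* overlapped. Of the genes tested, 36.3% did not overlap between Het and KO in their own levels.

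**Figure D4:**
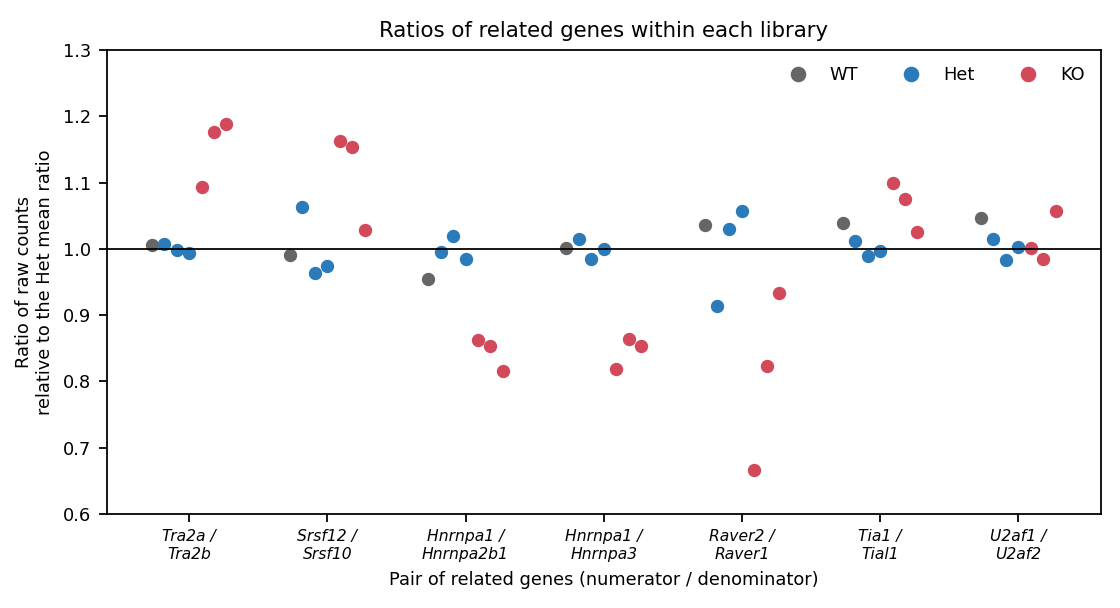
Ratio of raw counts of 7 pairs of related genes in each library, divided by the mean ratio of the 3 Het libraries (line at 1), with WT grey, Het blue and KO red and an axis that starts at 0.6. *Tra2a* over *Tra2b* and *Tia1* over *Tial1* lie above all Het points in KO, and both ratios of *Hnrnpa1* lie below.

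Levels between genes were compared as CPM per kilobase of merged exon. In Het, *Hnrnpa1* was highest with 547 ± 19.3 CPM per kilobase, followed by *Hnrnpa0* with 364 ± 10.3 and *Pcbp1* with 291 ± 3.64 (SD, n = 3), and *Hnrnpab* with 287 ± 3.85 differed from *Pcbp1* by about the spread between libraries. At the other end stood *Raver2* with 7.92 ± 0.623, *Tia1* with 4.78 ± 0.0121 and *Srsf12* with 2.58 ± 0.102. The genes that passed both limits were thus among those of lower level, *Tra2a* with 14.6 ± 0.362 CPM per kilobase, against a median of 59.5 over the 48. The order depends on the length used. Per kilobase of the longest transcript, as means over all 7 libraries, *Hnrnpa1* stayed first with 522, but *Hnrnpk* with 449 and *Hnrnpa2b1* with 413 came before *Hnrnpa0* with 357, and *Pcbp1* was in place 7. *Tia1*, whose exons merge to 15750 bases over all transcripts, was then at 18.6 and left the lowest 3, while *Srsf12* stayed last with 3.07 and *Raver2* next to last with 11.4.

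WT lay above all 3 Het libraries in 29 of the 48 genes (60.4%), where 25.8% of all genes did, and below them in 2, *Hnrnph2* and *Raver1* (4.17%, against 25.6%). These 31 genes outside the Het range stood beside 51.3% of all genes. The differences were small, with WT at 95.9% to 111% of the Het mean, highest in *Srsf6* and *Srsf5*. Summed over the 48 genes, WT was at 102% and KO at 98.4% of Het. With 1 WT library, none of this has a replicate check.

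The 3 changed genes have different promoters in the 250 bases before the RefSeq start (GRCm38.p6), printed here because the genes moved in the same direction. Capitals mark matches, on either strand, to the GC box GGGCGG, the CCAAT box CCAAT, the ETS core CCGGAA and the TATA box TATAAA.
Srsf12, chr4:33209022-33209271, plus strand: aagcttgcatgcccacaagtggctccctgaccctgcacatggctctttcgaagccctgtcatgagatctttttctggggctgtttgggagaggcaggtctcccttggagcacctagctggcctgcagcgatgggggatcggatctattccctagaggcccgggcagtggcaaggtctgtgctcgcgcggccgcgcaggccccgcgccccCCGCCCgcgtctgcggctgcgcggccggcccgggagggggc
Tra2a, chr6:49264053-49264302, minus strand: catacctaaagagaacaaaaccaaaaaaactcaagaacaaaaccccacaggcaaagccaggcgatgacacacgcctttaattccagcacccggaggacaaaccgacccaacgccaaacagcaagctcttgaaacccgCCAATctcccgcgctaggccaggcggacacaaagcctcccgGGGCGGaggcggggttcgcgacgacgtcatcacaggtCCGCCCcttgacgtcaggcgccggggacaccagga
Tia1, chr6:86403969-86404218, plus strand: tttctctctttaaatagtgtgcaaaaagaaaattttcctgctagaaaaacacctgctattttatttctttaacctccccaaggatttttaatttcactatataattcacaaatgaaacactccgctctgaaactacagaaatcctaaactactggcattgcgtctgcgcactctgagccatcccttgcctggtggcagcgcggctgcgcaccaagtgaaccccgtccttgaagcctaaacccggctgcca
*Srsf12* held 1 GC box, *Tra2a* 2 GC boxes and 1 CCAAT box, and *Tia1* none of the 4 motifs, with a GC content of 44.0% against 68.0% and 58.8%. In GENCODE M21, *Srsf12* starts at base 33208991 of chromosome 4, so its printed window lies inside the gene as annotated there. Promoters were matched for 43 of the 48 genes. GC boxes were in 33 of them (76.7%, against 32.9% of 27025 promoters), CCAAT boxes in 46.5% (34.5%), ETS cores in 32.6% (12.2%) and TATA boxes in 7.0% (13.0%), and the median GC content was 63.6% against 52.0%. The 27025 promoters were neither limited to the genes tested nor matched for abundance.

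The decay exons were set beside the fold changes after both were known, so what follows is a description. Of the 6 genes that passed the adjusted p upwards by edgeR, 5 hold such an exon (*Srsf11*, *Tra2a*, *Tia1*, *Tial1* and *Sf3b1*), and *Srsf12* does not. Of these 5, *Tra2a* and *Tia1* passed in each of the 6 refits without 1 library, *Srsf11* and *Tial1* in 2 and *Sf3b1* in 1. By DESeq2, *Srsf10*, which holds no such exon, also passed upwards (adjusted p = 0.0106). Of the 10 genes with such an exon, the other 5 did not pass, with log2 fold changes of -0.11 in *Srsf3*, 0.064 in *Srsf7*, -0.061 in *Srsf9*, 0.076 in *Tra2b* and -0.080 in *Hnrnpd*. Over all protein-coding genes tested, 9.23% of 1148 with such an exon passed upwards and 6.1% downwards, beside 6.17% and 6.29% of those without one. The 2 sets were not matched for precision: the median SE of the log2 fold change was 0.0499 with such an exon and 0.067 without.

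Other genes of the splicing pathway were followed in 5 lists of 104 genes. Of the 44 snRNP proteins, 1 rose by both limits, *Snrnp48* of the minor spliceosome's U11/U12 particle, at 11.9 CPM in WT, 12.1, 12.1 and 11.1 CPM in Het and 15.0, 14.4 and 15.1 CPM in KO (log2 fold change 0.34, adjusted p = 0.0192, edgeR). *Prpf3* passed the adjusted p alone at 0.15. The largest negative value was *Snrpb2* at -0.52, with an adjusted p of 0.0761 by edgeR and 0.0476 by DESeq2, which called it lower, and the median of the list was 4.48e-06.

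The list of 9 kinases that phosphorylate SR proteins and of their nuclear importer held 2 genes that rose, both kinases. *Clk1* was at 26.0 CPM in WT, 23.7, 22.2 and 22.9 CPM in Het and 28.8, 31.5 and 35.3 CPM in KO, all KO above WT and Het (log2 fold change 0.47, SE 0.0761, adjusted p = 0.0161, edgeR). *Clk4* was at 15.2 CPM in WT, 13.3, 13.7 and 14.0 CPM in Het and 16.9, 17.3 and 20.7 CPM in KO (0.42, SE 0.0853, adjusted p = 0.0296). *Srpk2*, a cytoplasmic SR kinase, passed the adjusted p alone at 0.17. *Srpk3*, a muscle kinase, was at 0.971 CPM in Het1, the library with muscle markers, and at 0.0605 to 0.190 CPM in the other 6, with a log2 fold change of -1.38 (adjusted p = 0.349).

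Of the 15 SR-related and exon junction genes, *Luc7l3*, a U1-associated protein, rose and *Rnps1*, an exon junction factor, fell. *Rnps1* was at 181 CPM in WT, 183, 196 and 189 CPM in Het and 109, 103 and 104 CPM in KO, or 55.6% of Het (log2 fold change -0.85, SE 0.0386, adjusted p = 0.00051, edgeR). It lies on chromosome 17, where 34 of the 100 nearest tested genes were called, 28 of them lower. For the 3 changed genes among the 48, 4 to 6 of the 100 nearest genes were called. *Luc7l3* was at 110.3 CPM in WT, 107, 107 and 104 CPM in Het and 127, 129 and 129 CPM in KO (0.28, adjusted p = 0.00514), and 19 of its 100 nearest genes were called, 16 of them lower. *Luc7l2* passed the adjusted p alone at 0.13.

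Neither the 10 nonsense-mediated decay factors nor the 25 other RNA-binding splicing factors held a gene past both limits, by edgeR or DESeq2, with 3 and 7 of them at an unadjusted p below 0.05. *Upf1*, the helicase of nonsense-mediated decay, was the only decay factor to pass the adjusted p, at 0.19 (adjusted p = 0.0436, edgeR). Fold changes were above 0 in 9 of the 10 decay factors, with a median of 0.075, beside 49.05% of all genes tested, with a median of -0.0047. Among the others, *Rbm5* passed it alone at 0.21, and the cold-inducible *Cirbp* and the paraspeckle gene *Pspc1* at -0.20 and -0.17. Over the 5 lists, 5 of 104 genes (4.81%) passed both limits by edgeR, 4 higher and 1 lower, beside the 7.22% of all genes. DESeq2 called the same 5 and *Snrpb2*.

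**Figure D5:**
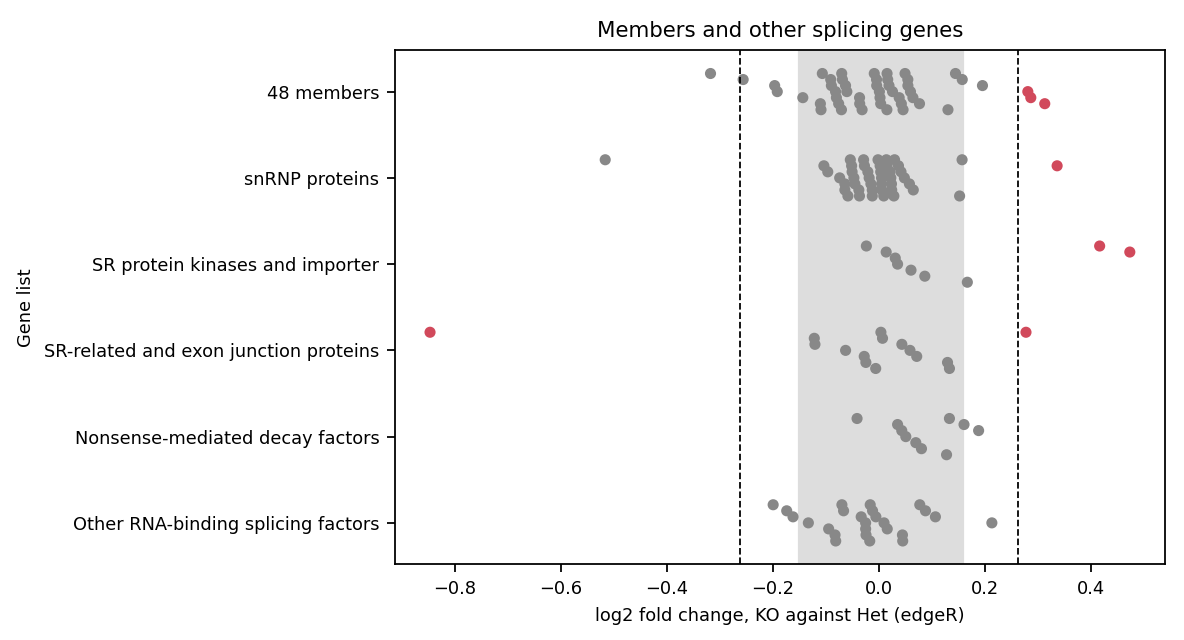
Log2 fold change from Het to KO (edgeR) of the 48 genes and of the 5 lists of other splicing genes, 1 point a gene, red where both limits were passed, with dashed lines at ±0.263 and the middle 50% of all genes tested in grey (-0.15 to 0.16). *Rnps1* stands apart at -0.85, and *Srpk3*, at -1.38, lies off the axis and is not drawn.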

How the data were processed

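Pools of E16 retinas were sequenced as 1 WT, 3 Het and 3 KO stranded mRNA libraries, grouped by the labelled genotype. Reads were aligned by the authors to GRCm38 (mm10) using STAR in rMATS-turbo. The deposited counts are whole reads per gene from featureCounts, with no normalization. Strand and multi-mapping settings are not given in the sources used here. The sample labels name TRIzol and the methods a column kit.

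One model of all 7 libraries was fitted in edgeR 4.0.16 (R 4.3.3) with filterByExpr, TMM factors of 0.988 to 1.032, glmQLFit and glmQLFTest, taking KO minus Het as the contrast. Standard errors were the log2 fold change over the square root of F. Replicates were not copies of each other, as the variance between any pair was at least 14.0 times that of counting. The fit was checked on simulated counts. Alternatives were DESeq2 1.42.0, other scalings and filters, 6 libraries without WT, a replicate block, glmTreat and each library left out. Adding pseudogene copies (blastn 2.17.0) was chosen after seeing the data. Exons came from GENCODE M21 and promoters from RefSeq.

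The 48 genes and all lists were chosen with earlier results of these data known. Values per library are given for genes past an adjusted p of 0.05, for the 3 highest and 3 lowest levels per length, for the largest rise and fall of each subfamily, and for *Raver1*, *Raver2* and *Matr3*. Those of *Tra2b* and *Srpk3* were added after they were seen. In the other lists, called genes are named, with up to 3 rises and falls by size. Splicing and single-cell data were not analysed here.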

Additional observations from a re-analysis of the deposited data

How the results depend on the processing

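Of 445 alternative values, 405 kept their direction and their call by both limits together, or moved by less than the replicate spread. For a single gene, a change in the adjusted p alone did not count. *Hnrnpa1* without KO2 is thus among the 405, although its adjusted p by edgeR went from 0.0397 to 0.157. *Tra2a* and *Tia1* were called in 14 of 15 alternatives and *Srsf12* in 8. The exception common to all 3 was glmTreat, which tests against the fold limit itself: it called 217 genes in place of 1445, and 0 of the 48. Leaving out 1 library gave 386 to 1673 genes, the fewest without Het2, Het3 or KO2 (386, 496 and 612) and the most without KO3. Of the 48 genes, 2 to 3 were then called higher and 0 to 2 lower, and of the other splicing genes 2 to 7, with 2 in the absence of Het2, Het3 or KO2. Past the adjusted p alone were 2 to 9 of the 48 (3 without Het1, 2 without Het2, Het3 or KO2, and 9 without KO3) and 13 by DESeq2, which called 2066 genes. The 1 gene called lower by DESeq2, with at least 10 counts in every library and with the replicate block was *Raver2*, and without KO3 the 2 were *Srsf5* and *Raver2* (-0.33 and -0.38). With 1 library left out, the sign changed in 11 of the 48 genes. In 7 of them (*Srsf1*, *Srsf4*, *Hnrnpa3*, *Syncrip*, *Hnrnph1*, *Hnrnph3* and *U2af2*) the values lay between -0.036 and 0.086. The other 4 were *Hnrnpf* (-0.029 to 0.024, positive without Het2, and 0.0056 without KO2), *Pcbp3* (-0.015 to 0.13, negative without KO1), *Tardbp* (-0.071 to 0.0052, positive without Het2) and *Raver1* (-0.053 to 0.052, negative without KO1 and, at -0.019, without Het2, and -0.0017 by DESeq2, -0.00011 with RLE scaling and -0.00040 without a filter). The cause was not tested. Nothing in the labels says that the replicate numbers pair the samples. Deviations of same-numbered Het and KO libraries had correlations of -0.12, 0.26 and 0.019, and the other pairs -0.351 to 0.225, which does not settle whether they were paired. With the replicate block, 1268 genes and 3 of the 48 were called (*Tra2a*, *Tia1* and *Raver2*), and *Srsf12* had an adjusted p of 0.0509. Adding the pseudogene copies, at most 2.93% of a gene's counts, changed no call among the 48. The counts give no limit of detection for these 48 genes, the lowest of which was at 7.78 CPM in its lowest library.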
